A study of Homo sapiens with 9 samples.

Results

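The nuclear genes for subunits of the mitochondrial respiratory chain and ATP synthase were followed on 9 arrays of SK-N-AS, an established human neuroblastoma cell line. Members were chosen by symbol from the array annotation: genes beginning NDUFA, NDUFB, NDUFC, NDUFS, NDUFV, UQCR, COX4I, COX5, COX6, COX7, COX8 or ATP5, together with SDHA, SDHB, SDHC, SDHD and CYC1, without the NDUFAF assembly factors and without pseudogenes. This gave 78 of the 19775 genes that had a probe set assigned to a single gene. Complex I had 33, complex II 3, complex III 7, complex IV 17 and ATP synthase, called complex V below, 18. Each gene was read from the probe set with the highest mean signal. A filter on low signal kept 73 of the 78, among 13792 genes in all. Those below it were ATP5MF, COX6B2, COX7A1, COX7B2 and COX8C. ATP5MF had only 1 single-gene probe set, and probe sets assigned to several genes were left out. Its low signal thus does not settle whether the gene was expressed.

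The cells carried an expression construct for full-length NRSF (RE-EX1), one for a truncated NRSF variant (HZ4), or were untreated. NRSF, also called REST, is a transcription factor best known for repressing neuronal genes. Each of the 3 series was sampled at 0, 24 and 48 h, with 0 h as its baseline, and each of the 9 groups had 1 array. The design text speaks of triplicates over 3 batches, but no label ties an array to a batch, so time effects were tested across the 3 series. For time effects a p-value measures the spread between series, not between replicate cultures.

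Oxidative phosphorylation passes electrons from NADH through complex I, or from succinate through complex II, to ubiquinone, and then by way of complex III and cytochrome c to complex IV, which reduces oxygen. Complexes I, III and IV pump protons across the inner mitochondrial membrane, and ATP synthase uses the resulting gradient to make ATP. Most subunits are encoded in the nucleus and imported, while a small core set is encoded by mitochondrial DNA; nuclear respiratory factor 1 (NRF1), the ETS factor GABP and YY1 are known to bind promoters of many of the nuclear genes. Neuroblastoma is a tumour of the developing sympathetic nervous system.

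Array medians ranged from 30.9 to 42.7 signal units after the authors' scaling, with the highest on the truncated NRSF 24 h array. Between 21.9% and 26.9% of probe sets lay at or below the floor used for low signal. The 3′ to 5′ signal ratio of the ACTB control probe sets ranged from 2.25 to 4.19 and that of GAPDH from 0.96 to 1.62. Of 12 sympathoadrenal markers 11 were on the array and 9, GATA3 among them, passed the filter, which 13792 of all 19775 genes passed. TH and DBH were among those below it. All 8 mesenchymal neuroblastoma markers passed, and none of 5 epithelial markers did. Of other markers on the array, 2 of 4 for blood, 1 of 4 for endothelium and 1 of 3 for Schwann cells and melanocytes passed. Of 8 mesenchymal neuroblastoma markers 5 were called lower and 1 higher at 24 h, against 8.26% and 8.13% of all genes. Their part in the subunit changes was not tested. At 0, 24 and 48 h the REST signal was 171, 268 and 274 with the full-length construct, 162, 323 and 342 with the truncated one, and 177, 445 and 260 without treatment. It was thus higher after 0 h in the untreated cells as well, with a change of 0.99 ± 0.22 (log2, SE) at 24 h over the 3 series (limma, adjusted p = 0.0046), and it was not called higher with either construct (adjusted p = 1 and 0.99). The constructs are named below as the labels give them. Whether this probe set lies in the expressed part of either construct was not known here.

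Subunit signals were on balance lower at 24 h than at 0 h, with a median near 0 again at 48 h. At 24 h, 12 of the 73 genes were called lower at an adjusted p under 0.05 in limma, against 8.26% of all genes, and 0 were called higher, against 8.13%. An unadjusted p under 0.05 in limma was reached by 25 members (34.2%), all lower. In either direction it was reached by 28.3% of all genes and by 44.5% of the brightest 20% of genes. The median change over the 73 was -0.25, against -0.03 over all genes. The estimate was below 0 for 65 of 73, or 89.0%, compared with 52.0% of all genes. Because 63 of the 73 members lie in the brightest 20% of genes, that share was read beside them: there the median was -0.05, 55.2% of estimates were below 0, 15.3% of genes were called lower and 13.6% higher. The count of calls lower among the members, 16.4%, was thus near that of the brightest 20%, while no member was called higher. Without limma's variance trend 0 members were called at 24 h, where 218 genes of 13792 were called lower, and 13 members were lower at an unadjusted p under 0.05; with no filter 5 members were called. In bulk RNA a lower level per cell cannot be told apart from a smaller share of the cells that express a gene.

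The 24 h change was not even across the series, a difference given here as values. The median 24 h change over the 73 genes was -0.57 in the truncated series, -0.22 in the full-length series and -0.02 in the untreated series, with an SD of 0.28 between the 3 medians. A fall of 1.5-fold or more at 24 h was seen for 34 members in the truncated series (23.4% of all genes, 21.3% of the brightest 20%). It was seen for 4 in the full-length series (20.9% and 9.93%) and 8 in the untreated series (20.9% and 9.64%). The baseline of the truncated series was itself high: its 0 h array held the highest of the 9 values for 18 of 73 members, against 11.3% of all genes and 11.6% of the brightest 20%. At 0 h 7 members stood 1.5-fold or more above untreated cells there (12.9% of all genes, 3.3% of the brightest 20%). The part of this baseline in the fall was not tested. The truncated NRSF 24 h array held the lowest of the 9 values for 46 of 73 members, against 16.5% of all genes and 26.8% of the brightest 20%. On that same array the median deviation of a gene from its own mean was -0.40 for the members, -0.12 for the brightest 20% of genes and 0.52 for the dimmest 20%, so bright and dim genes as a whole also moved apart there; the part this has in the members' fall was not tested. After quantile normalization, which gives all arrays one distribution, the truncated series kept a median of -0.46, and with cyclic loess -0.45. Without the truncated series the median over the other two was -0.10, and 7 of the 12 genes were still called lower.

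**Figure D1:**
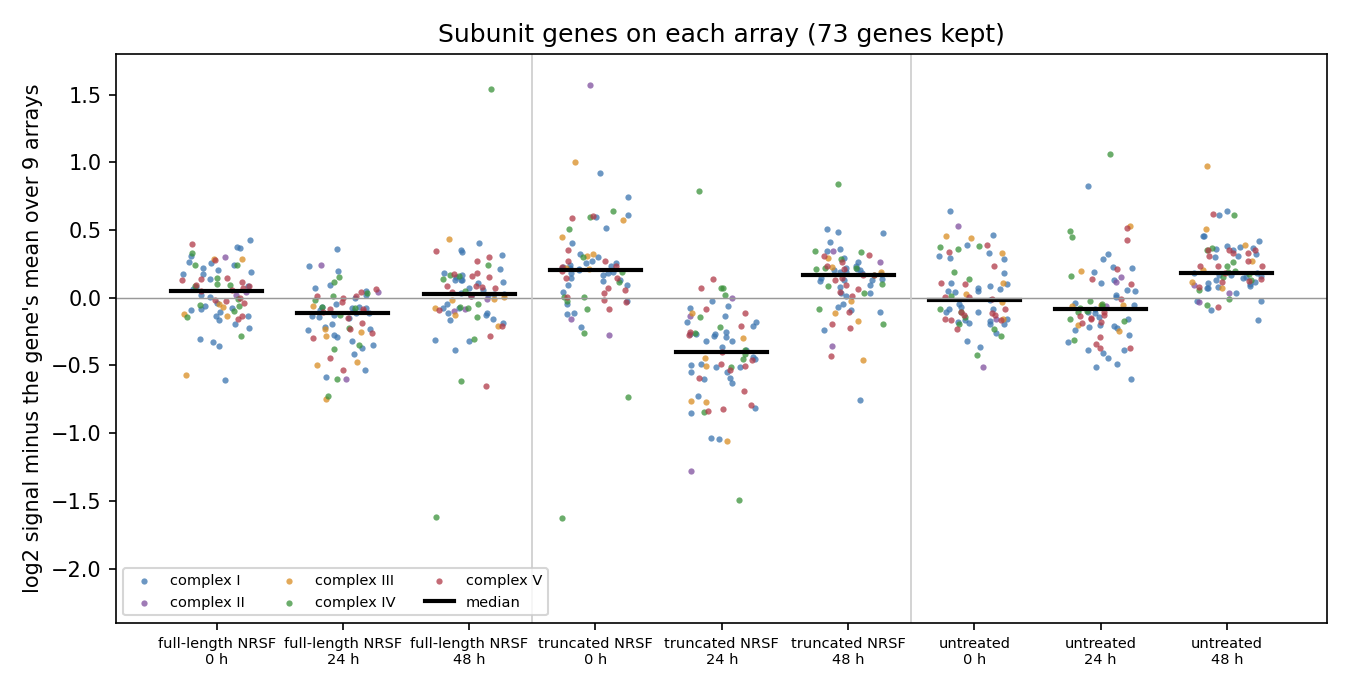
Log2 signal of each of the 73 subunit genes minus its own mean over the 9 arrays, by array, with points coloured by complex and a bar at the median. The truncated NRSF 24 h array sits lowest, with a median of -0.40, and the untreated 48 h and truncated 0 h and 48 h arrays sit highest, with medians of 0.19, 0.20 and 0.17.

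By complex, the calls at 24 h were spread over all 5. The counts are to be read beside the shares called lower, 8.26% of all genes and 15.3% of the brightest 20% of genes. Estimates below 0 made up 52.0% of all genes and 55.2% of the brightest 20%. Whether any complex departed from these shares was not tested. Complex I had 7 of 33 genes called lower with a median of -0.28, and 32 of its 33 estimates were below 0. Complex III had 2 of 7 called lower with a median of -0.40, and all 7 estimates were below 0. Complex V had 1 of 17 called lower and a median of -0.25, and complex IV 1 of 13 and -0.18. Complex II was unlike these in its values: SDHA was called lower, but the estimates for SDHC and SDHD were 0.22 and 0.11, neither called, so the median of its 3 genes was 0.11. No test of a difference between complexes was made, since subunits are not replicates. In the untreated series alone the 24 h medians were -0.15 for complex I, 0.31 for II, -0.02 for III, 0.11 for IV and -0.02 for V.

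**Figure D2:**
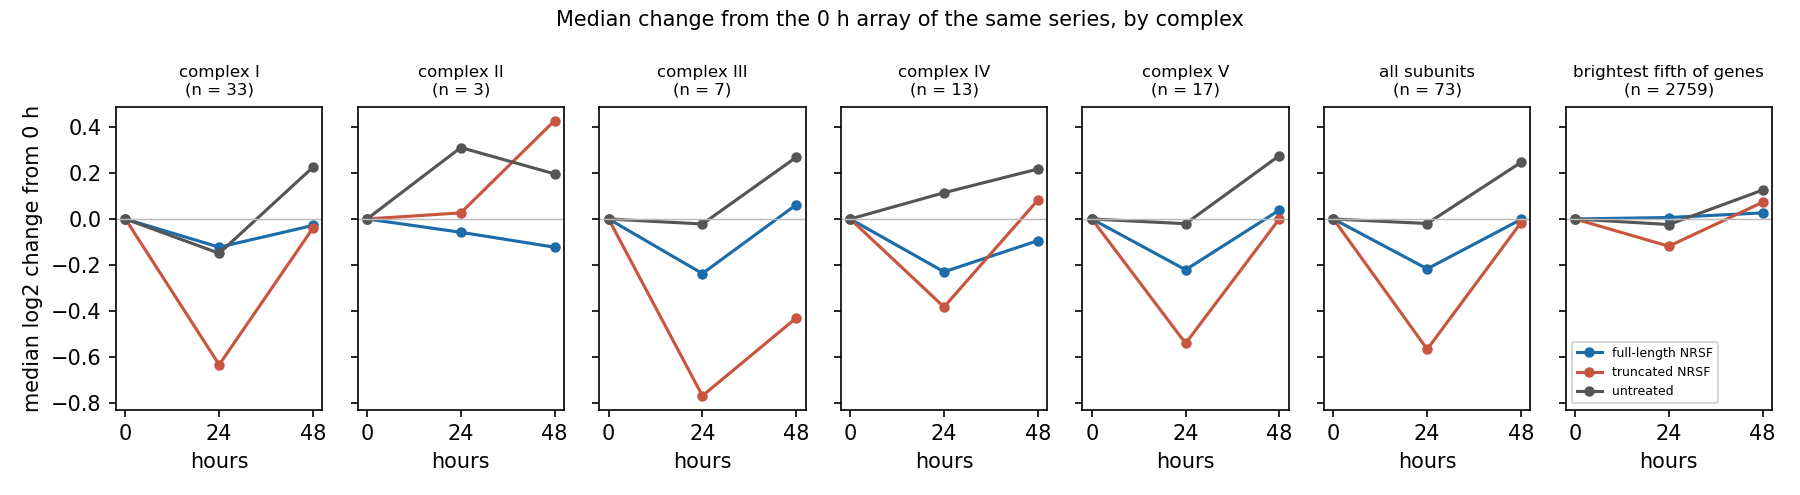
Median log2 change from the 0 h array of the same series over the genes of each complex, over all 73 subunit genes and over the brightest 20% of all genes, for the 3 series at 24 and 48 h (1 array per point, lines join arrays of a series). The truncated series falls deepest at 24 h in complexes I, III, IV and V, to -0.77 in complex III, and complex III of that series stays at -0.43 at 48 h.

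In complex I the 2 largest called changes were in subunits of the membrane arm. NDUFB10, an accessory subunit of that arm, read 1412, 1910 and 1537 at 0 h and 1137, 712 and 878 at 24 h (full-length, truncated and untreated cells, an order kept below). All 3 of the 24 h values lay below all 3 of the 0 h values, and the truncated array was lowest. The change was -0.85 ± 0.17 (adjusted p = 0.003), an average signal 55.5% of that at 0 h. Without the truncated series it was -0.56 (limma, adjusted p = 0.049). The other NDUFB10 probe set, marked _x_, read 348, 686 and 704 at 0 h and 439, 236 and 434 at 24 h. It thus rose in the full-length series, and its change of -0.63 was not called. NDUFB7, another accessory subunit, read 455, 515 and 753 at 0 h and 321, 318 and 344 at 24 h, and here the untreated series, with the highest 0 h value, fell most. Its change was -0.78 ± 0.17 (adjusted p = 0.0046), or 0.27 when averaged with a second probe set that lay below the filter, and at 48 h it read 560, 618 and 663, above every 24 h value. NDUFB6, also of the membrane arm, read 2194, 2156 and 2295 at 0 h and 1570, 1229 and 1359 at 24 h. Its 0 h values were nearly level across the series and all lay above the 24 h values, and its change was -0.68 ± 0.14 (adjusted p = 0.0026). NDUFB1, a small membrane-arm subunit, fell from 3139, 2915 and 2947 to 2290, 1657 and 1826, a change of -0.65 ± 0.15 (adjusted p = 0.0071).

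The peripheral arm, which holds the flavin and the iron-sulfur clusters, was represented among the calls by NDUFV1 and NDUFS7. NDUFV1, which binds NADH and the flavin, read 869, 1076 and 949 at 0 h and 602, 664 and 621 at 24 h. The groups did not overlap and the 3 series changed by -0.53, -0.70 and -0.61, giving -0.61 ± 0.14 (adjusted p = 0.008). NDUFS7, which carries the last iron-sulfur cluster before ubiquinone, read 509, 432 and 522 at 0 h and 350.8, 314 and 250 at 24 h, a change of -0.69 ± 0.20 (adjusted p = 0.025). NDUFA3, an accessory subunit, read 532, 486 and 437 at 0 h and 352, 282 and 352 at 24 h, a change of -0.56 ± 0.17 (adjusted p = 0.033). The remaining 26 complex I genes ranged from -0.52 for NDUFA13 to 0.22 for NDUFV3 at 24 h, and none was called.

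SDHA, the flavoprotein of complex II that oxidises succinate, had the lowest estimate of all members at 24 h, and its change was uneven across the series. It read 558, 1643 and 795 at 0 h and 364, 227 and 598 at 24 h. The truncated 0 h value was the highest of the 9 arrays and the truncated 24 h value the lowest. The change was -0.62, -2.85 and -0.41 in the 3 series and -1.29 ± 0.32 over them (adjusted p = 0.011). Without the truncated 0 h array it was -0.63 (adjusted p = 0.058), without the truncated 24 h array -0.79 (adjusted p = 0.097), and without that series -0.51 (adjusted p = 0.1). SDHA has 1 probe set here, whose identifier carries the _x_ mark for possible cross-hybridization.

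In complex III, UQCRC2, a core protein, had the lowest adjusted p of the 12 genes. It read 2006, 2056 and 2240 at 0 h, 1183, 1207 and 1430 at 24 h, and 1624, 1526 and 1895 at 48 h. At this brightest probe set the 3 series fell by nearly the same amount, with changes of -0.76, -0.77 and -0.65, and the mean was -0.73 ± 0.13 (limma, adjusted p = 0.0012), or 60.5% of the 0 h signal. A separate, unmarked probe set of UQCRC2 gave -0.85 ± 0.16 and was called as well when all probe sets were fitted singly. It read 995, 1463 and 1754 at 0 h and 723, 706 and 853 at 24 h, a less even fall. A dim unmarked one gave 0.20 and was not called (limma, adjusted p = 0.82). UQCRQ, a small subunit next to cytochrome b, read 2622, 4101 and 3464 at 0 h and 1951, 1609 and 2651 at 24 h. The groups overlap slightly, since the untreated 24 h value lay above the full-length 0 h value. The change was -0.72 ± 0.17 (adjusted p = 0.0083), and without the truncated series it was -0.41 (adjusted p = 0.14).

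COX8A, the ubiquitous form of a small complex IV subunit, was the only complex IV gene called at 24 h. It read 2073, 3460 and 2991 at 0 h and 1386, 2327 and 2221 at 24 h. The levels of the groups overlap, because the full-length series was low throughout, but the 3 series changed alike, by -0.58, -0.57 and -0.43, and the mean was -0.53 ± 0.13 (adjusted p = 0.011). In complex V the call was ATP5IF1, the inhibitor that binds the enzyme and blocks ATP hydrolysis when the gradient collapses. It read 731, 1011 and 872 at 0 h and 624, 373 and 732 at 24 h, and the change of -0.64 ± 0.21 (adjusted p = 0.046) rested on the truncated series: without it the value was -0.24 (adjusted p = 0.49). Its other marked probe set gave 0.15 and its unmarked one 0.16, neither called, so the sign depends on the probe set. ATP5F1D, the delta subunit of the rotor stalk, had a larger estimate of -0.68 ± 0.27 but was not called (adjusted p = 0.11), with series changes of -0.22, -1.14 and -0.68.

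**Figure D3:**
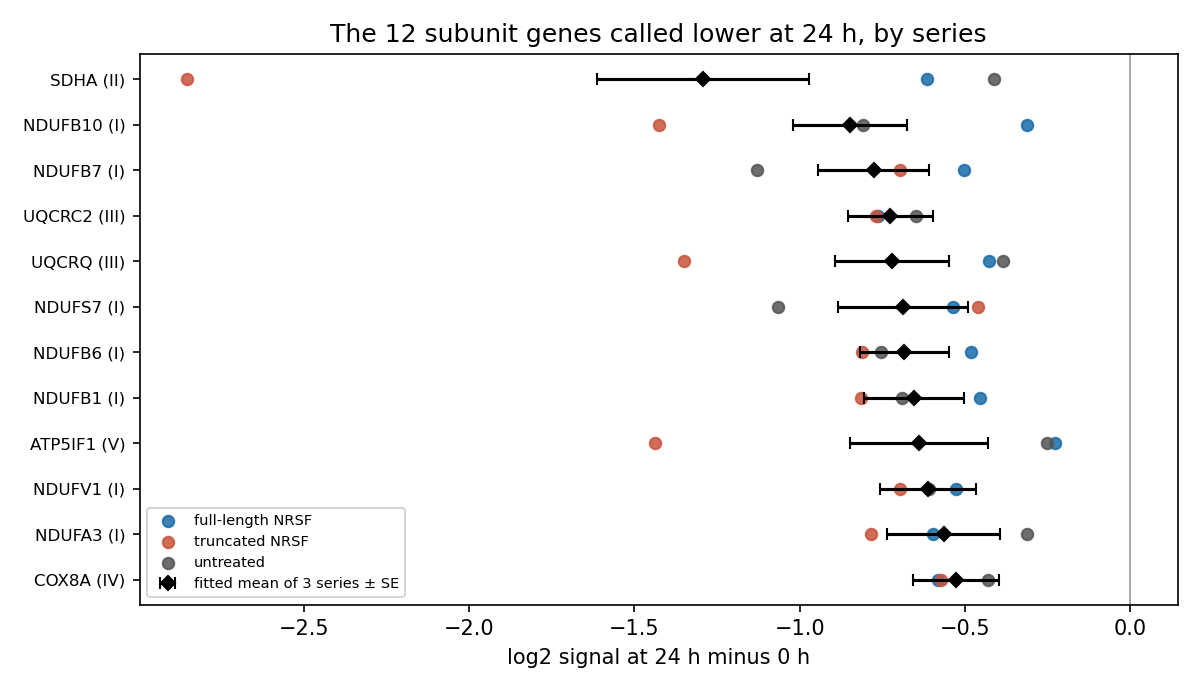
Log2 signal at 24 h minus 0 h in each series for the 12 subunit genes called lower (complex in brackets), with the fitted mean over 3 series and its SE. Points for UQCRC2, NDUFV1, NDUFB6 and COX8A lie close together, while for SDHA, NDUFB10, UQCRQ and ATP5IF1 the truncated series lies far to the left.

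Counted without a model, 20 of 73 members had all 3 of their 24 h values below all 3 of their 0 h values, against 15.5% of all genes and 22.1% of the brightest 20%, and 0 had the reverse (14.4% of all genes). The 24 h value was below the 0 h value within every series for 34 members (24.4% of all genes, 32.7% of the brightest 20%) and above it in every series for 0 (21.8%). Of the 42 members read by a marked probe set, one whose identifier carries _s_ or _x_, 9 were called lower at 24 h, with a median of -0.30; of the 31 read by an unmarked one, 3 were called, with a median of -0.18. The other 58 probe sets that passed the filter, for 34 of the members, had a median of -0.12, and 32 of 58 had the sign of the brightest probe set. Apart from that of UQCRC2, 0 of them were called at 24 h.

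The promoters of the 12 genes were read for the letters of factors known to control this gene group, and 5 are shown because they hold an NRF1 or ETS motif upstream of the start. Windows of 300 bases, from 250 before to 50 after the annotated start, were taken from RefSeq (GRCh38.p14) and matched for 66 of the 78 members, the 12 called genes included. The motifs, searched on both strands, were GCGCA and GCGC with any 1 base between them for NRF1, CCGGAAG for ETS factors such as GABP, and AAGATGGC for YY1. They occurred in 20.3%, 25.3% and 15.2% of the 79 windows of members, against 7.39%, 12.8% and 3.53% of all 22199 windows of protein-coding genes. Among the 12 genes called lower the NRF1 letters were in 2 (SDHA and NDUFA3), the ETS letters in 3 (COX8A, NDUFB7 and UQCRQ) and the YY1 letters in 2 (NDUFA3 and NDUFS7). Among the 51 other kept genes with a window they were in 13, 16 and 9. The 250 bases before the start follow, 5′ to 3′ on the strand of the gene, with the NRF1 and ETS letters in capitals.
SDHA, chr5:218070-218319, + strand: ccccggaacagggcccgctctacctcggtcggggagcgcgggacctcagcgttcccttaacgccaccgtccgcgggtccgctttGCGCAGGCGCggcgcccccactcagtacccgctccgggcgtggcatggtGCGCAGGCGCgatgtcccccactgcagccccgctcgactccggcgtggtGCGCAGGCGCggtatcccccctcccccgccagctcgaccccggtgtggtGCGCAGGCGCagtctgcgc
NDUFA3, chr19:54102605-54102854, + strand: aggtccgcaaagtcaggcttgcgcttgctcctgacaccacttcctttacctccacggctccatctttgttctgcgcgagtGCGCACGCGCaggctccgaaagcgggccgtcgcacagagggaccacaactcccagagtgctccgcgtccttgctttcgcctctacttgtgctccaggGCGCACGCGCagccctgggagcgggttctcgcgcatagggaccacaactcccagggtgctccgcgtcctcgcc
UQCRQ, chr5:132866392-132866641, + strand: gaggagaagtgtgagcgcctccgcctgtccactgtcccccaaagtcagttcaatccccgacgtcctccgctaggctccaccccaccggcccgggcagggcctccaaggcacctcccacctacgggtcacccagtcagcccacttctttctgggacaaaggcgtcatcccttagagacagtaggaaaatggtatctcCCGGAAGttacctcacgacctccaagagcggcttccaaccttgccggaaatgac
NDUFB7, chr19:14572067-14572316, - strand: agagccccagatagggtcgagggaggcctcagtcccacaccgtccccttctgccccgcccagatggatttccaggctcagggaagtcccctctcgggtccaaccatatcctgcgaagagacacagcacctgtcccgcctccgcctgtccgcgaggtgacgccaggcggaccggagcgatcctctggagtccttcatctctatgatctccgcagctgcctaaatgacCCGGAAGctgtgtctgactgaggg
COX8A, chr11:63974370-63974619, + strand: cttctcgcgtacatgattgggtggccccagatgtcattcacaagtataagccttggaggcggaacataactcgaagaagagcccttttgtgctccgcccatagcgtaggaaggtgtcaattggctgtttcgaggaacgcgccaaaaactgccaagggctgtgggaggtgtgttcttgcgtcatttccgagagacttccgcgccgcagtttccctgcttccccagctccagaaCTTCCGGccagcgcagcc
In SDHA the NRF1 letters begin 166, 117, 68 and 19 bases before the start, in evenly spaced copies. In NDUFA3 they begin 170 and 73 bases before it. The ETS letters begin 54 bases before the start in UQCRQ, 24 in NDUFB7 and, on the opposite strand, 18 in COX8A. A match describes letters and not a bound site.

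From 24 to 48 h the estimates turned upward. Against 24 h, 70 of 73 estimates were above 0 with a median of 0.31, against 0.01 over all genes and 0.12 in the brightest 20%; after quantile normalization the counts were 64 of 73 and the median 0.23, and after cyclic loess 59 and 0.19. The upward turn was not particular to the subunits. Cytosolic ribosomal proteins had a median of 0.34, with 3 of 59 estimates below 0. Glycolytic enzymes had a median of 0.38, with 3 of 17 below 0. Regulators of mitochondrial gene expression had a median of -0.11, with 12 of 20 below 0. Among the subunits, NDUFB7, COX6A1, NDUFB6 and NDUFB5 were called higher (4 of 73, against 1.73% of all genes and 5.07% of the brightest 20%), and 0 were called lower (1.81%). NDUFB7 rose by 0.90 ± 0.17 (limma, adjusted p = 0.0063), from 321, 318 and 344 to 560, 618 and 663, and NDUFB6 by 0.59 ± 0.14 (adjusted p = 0.023), from 1570, 1229 and 1359 to 2081, 2161 and 1997; averaged with its dim second probe set, NDUFB6 gave -0.06. For both genes every 48 h value lay above every 24 h value. COX6A1, the widely expressed form of a complex IV subunit, rose from 8001, 7122 and 8652 to 11042, 10874 and 14229, by 0.60 ± 0.15 (adjusted p = 0.043; 0.21 after quantile normalization), and NDUFB5, described next, by 0.55 ± 0.14 (adjusted p = 0.045). Without a variance trend or a filter 0 members were called. For 27 members every 48 h value lay above every 24 h value, against 10.4% of all genes and 20.6% of the brightest 20%, and in 44 the 48 h value was higher within each series, against 20.1% and 35.2%. The reverse held for 0 members wholly (10.6% of all genes) and for 1 within every series (19.6%).

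Against 0 h, 1 member was called at 48 h. NDUFB5, an accessory subunit of the membrane arm, did not fall at 24 h: it read 2093, 2540 and 2251 at 0 h, 2494, 2111 and 2221 at 24 h, and 2874, 3675 and 3445 at 48 h. The 48 h arrays were the 3 highest, and the rise was 0.53 ± 0.14 (limma, adjusted p = 0.029), against 4.52% of all genes called higher and 10.8% of the brightest 20%. No member was called lower (3.92% of all genes), and 13 had an unadjusted p under 0.05 (22.8% of all genes, 36.8% of the brightest 20%). The 48 h values lay wholly above the 0 h values for 7 members (13.6% of all genes) and wholly below for 5 (14.2%), and within every series they were above for 17 (21%) and below for 12 (22.4%). The median over the 73 was 0.05, and it was -0.01 after quantile normalization and -0.03 after cyclic loess, so it had no settled sign. The 3 series had medians of 0.00, -0.02 and 0.25, the last in untreated cells, where 55 of 73 members stood above 0 h. That median was 0.12 after quantile normalization and 0.08 after cyclic loess, with 52 and 43 members above 0 h, and the brightest 20% of genes in that series had a median of 0.13. Falls of 1.5-fold or more at 48 h numbered 0 in the untreated series (18.5% of all genes, 5.11% of the brightest 20%). They numbered 3 in the full-length one (21.6% and 7.83%) and 9 in the truncated one (19.4% and 9.42%). Of the 12 genes that fell at 24 h, SDHA, ATP5IF1, NDUFV1 and NDUFS7 had the lowest 48 h means, at 56.4%, 71.5%, 73.6% and 76.0% of 0 h, none of them called.

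The change from baseline in each construct series was then compared with that in untreated cells, with 24 and 48 h taken as repeated readings of one effect. Both construct comparisons share the untreated arrays. Each series has 1 array at 0 h, which this fit matches exactly. The spread behind a p-value here is thus how the step from 24 to 48 h differs between series. Scatter of a 0 h array does not enter it. For full-length NRSF 0 members were called (1 gene of 13792 was called lower, 0.00725%, and 0 higher), 2 members had an unadjusted p under 0.05 (4.13% of all genes, 4.02% of the brightest 20%), and the median was -0.16, or -0.09 after quantile normalization and -0.10 after cyclic loess. For truncated NRSF 2 members were called lower, against 0.0363% of all genes, namely UQCRB and NDUFA1; the median was -0.27 and 16 members had an unadjusted p under 0.05, or 21.9%, compared with 7.63% of all genes and 11.3% of the brightest 20%. The estimates were below 0 for 52 members with full-length and 58 with truncated NRSF, of 73, where all genes had 50.4% and 49.1% and the brightest 20% had 52.6% and 54.6%. These counts were 45 and 54 after quantile normalization and 44 and 53 after cyclic loess.

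UQCRB, a subunit of complex III that contacts cytochrome b, went from 4419 at 0 h to 1056 and 1600 at 24 and 48 h with truncated NRSF. It read 1486, 1313 and 2015 with full-length NRSF, and 3028, 3176 and 4326 in untreated cells. The truncated 0 h value was the highest of the 9, and the untreated values stayed high throughout. The difference in change, truncated minus untreated, was -2.06 ± 0.28 (limma, adjusted p = 0.025), and full-length minus truncated was 1.90 ± 0.28 (adjusted p = 0.047), against 0.0145% of all genes called higher in that contrast, in which 14 members had an unadjusted p under 0.05 (6.2% of all genes). A second probe set, marked _x_, read 3601, 917 and 1367 in the truncated series and gave -2.29, whereas an unmarked probe set read 210, 122 and 239 and gave -0.59. A dim unmarked one read 4.15, 34.2 and 55.3 and gave 1.20, and neither unmarked value was called. NDUFA1, an accessory subunit of complex I encoded on the X chromosome, went from 3593 to 1051 and 1121 with truncated NRSF. It read 1845, 2428 and 1451 with full-length NRSF, and 1766, 3368 and 1938 in untreated cells. Its difference was -2.26 ± 0.35 (adjusted p = 0.034). SDHA gave -1.97 and was not called (adjusted p = 0.095). For all 3 genes the truncated 0 h array, which no fit of this contrast can leave out, gave the highest of the 9 values. Without the untreated 24 h array the adjusted p was 0.54 for both UQCRB and NDUFA1, and with no filter, no variance trend or averaged probe sets neither was called.

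**Figure D4:**
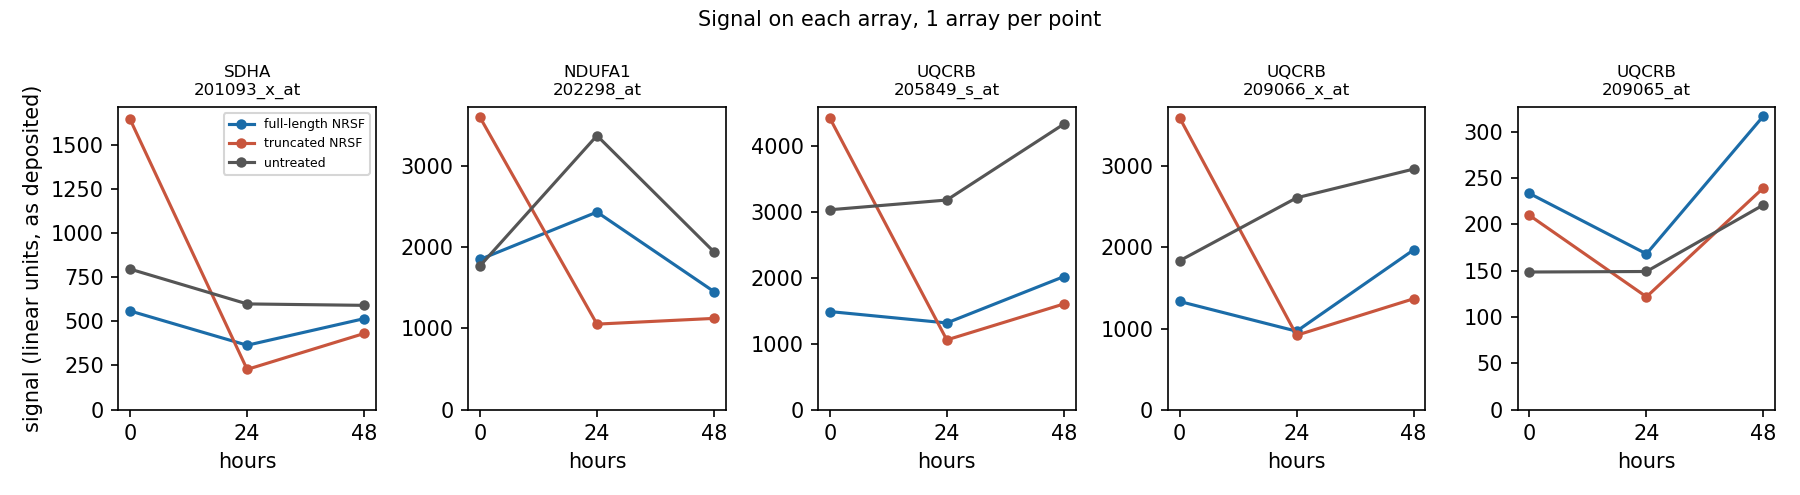
Signal on each of the 9 arrays for SDHA, NDUFA1 and UQCRB at their brightest probe sets and for 2 other UQCRB probe sets, with lines joining arrays of a series. The truncated series starts highest and drops at 24 h in the first 4 panels, while the last, the brighter unmarked UQCRB probe set, shows the 3 series closer together and highest at 48 h in each.

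Tissue and stress isoforms of complex IV were near the detection floor. COX4I2, the form linked to low oxygen, read 21.03, 16.8 and 74.2 over time in the full-length cells. The truncated cells gave 3.50, 9.06 and 45.8 and the untreated ones 32.8, 53.3 and 29.3, with 1 array at the floor, and its 48 h change of 1.37 had an adjusted p of 0.29. The heart and muscle form COX6A2 ranged from 13.5 to 71.5 and was not called. COX7A1, the muscle form of its subunit, and COX8C were at the floor on 7 of 9 arrays each, COX7B2 on 4 and COX6B2 on 1. SDHC, the membrane anchor of complex II, had 7 probe sets, whose estimates at 24 h ran from -0.92 to 0.39, none called; 1 of them, marked _x_, was called higher at 48 h when all probe sets were fitted singly (0.62). ATP5MK, a small membrane subunit of ATP synthase, had an estimate at 24 h of 0.01 ± 0.15, and UQCR10, a small complex III subunit, one of -0.24 ± 0.16 (adjusted p = 0.37). The other UQCR10 probe set, unmarked and dim, gave 1.53 ± 0.58 and was not called (adjusted p = 0.097).

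Genes around the subunits did not share one direction. At 24 h 8.13% of all genes were called higher and 8.26% lower, shares to be read beside the counts below. Of the 13 subunits encoded by mitochondrial DNA, 7 had a single-gene probe set, and all 7 passed the filter. Of these, 3 were called lower at 24 h: ND6 (-0.82 ± 0.23), COX3 (-0.77 ± 0.22) and ND2 (-0.58 ± 0.17). The median of the 7 was -0.28. ND6 and COX3 were not called without the full-length 0 h array, at -0.46 and -0.50. Of 17 complex I assembly factors, 3 were called higher at 24 h, NDUFAF1 (0.65 ± 0.20), NDUFAF2 (0.54 ± 0.15) and NDUFAF4 (0.53 ± 0.15), and 0 lower. Their median was 0.26, but 8 of the 17 estimates were below 0, so the list was split in direction. Complex I itself had a median of -0.28, with 32 of 33 estimates below 0. NDUFAF1 was not called without the full-length 24 h array (0.42), nor NDUFAF4 without the untreated 24 h array (0.35). A further complex I assembly factor, TMEM126B, rose at 48 h, by 0.52 ± 0.15 (limma, adjusted p = 0.037), but its unmarked probe sets gave -0.19. Of 39 assembly factors of complexes II to V, 3 were called higher and 4 lower at 24 h, near the shares over all genes. SCO1, which delivers copper to complex IV, rose by 0.75 ± 0.20, while SURF1, which helps insert its haem, changed by -0.83 ± 0.21. SURF1 was not called without the truncated series (-0.43). Of 17 genes for electron carriers and coenzyme Q synthesis, COQ10B rose by 1.02 ± 0.13 and ETFB (-0.85) and COQ8A (-0.79), an electron carrier and a coenzyme Q synthesis gene, were lower.

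Of 20 regulators of mitochondrial gene expression, 5 were called higher at 24 h, against 8.13% of all genes, and 0 lower, against 8.26%, with a median of 0.26. Their difference from the subunits was not tested. PPARGC1A, a coactivator of mitochondrial biogenesis, read 4.1, 53.5 and 9.9 at 0 h and 101, 76.4 and 53.3 at 24 h, a fitted change of 2.19 ± 0.61 (adjusted p = 0.021) with 1 array at the floor and all values dim. It was not called without any 1 of the full-length and untreated 0 h and 24 h arrays, at 1.48 (adjusted p = 0.14) without the full-length 0 h array. GABPB1, the partner subunit of the ETS factor GABP, rose from 201, 175 and 283 to 573, 454 and 509, by 1.24 ± 0.18. TEFM and POLG2, which act in transcription and replication of mitochondrial DNA, rose by 0.83 and 0.70, and TFAM, the main packaging factor of that DNA, by 0.64. GABPA and NRF1 themselves were not called, at 0.09 and -0.12. Of 75 mitochondrial ribosomal proteins 6 were higher and 4 lower at 24 h, where all genes had 8.13% and 8.26%. At 48 h 15 were higher and 0 lower, where all genes had 4.52% and 3.92% and the brightest 20% had 10.8% and 6.02%. MRPL47 had then risen by 1.05 and MRPL39 by 0.90. Among 17 genes of pyruvate dehydrogenase and the citric acid cycle, CS, SUCLA2 and SUCLG2 were lower and SUCLG1 higher at 24 h. Among 17 glycolytic enzymes PFKM and GPI were lower, with a median of -0.22, close to that of the subunits, and 14 of 17 estimates were below 0. Of 59 cytosolic ribosomal proteins, another group of bright genes, 1 was higher and 1 lower, with a median of -0.16 and 49 of 59 estimates below 0. The import receptor TOMM20 and the kinase PDK3 were the only genes called at 24 h in their lists, at -0.66 and -0.79.

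**Figure D5:**
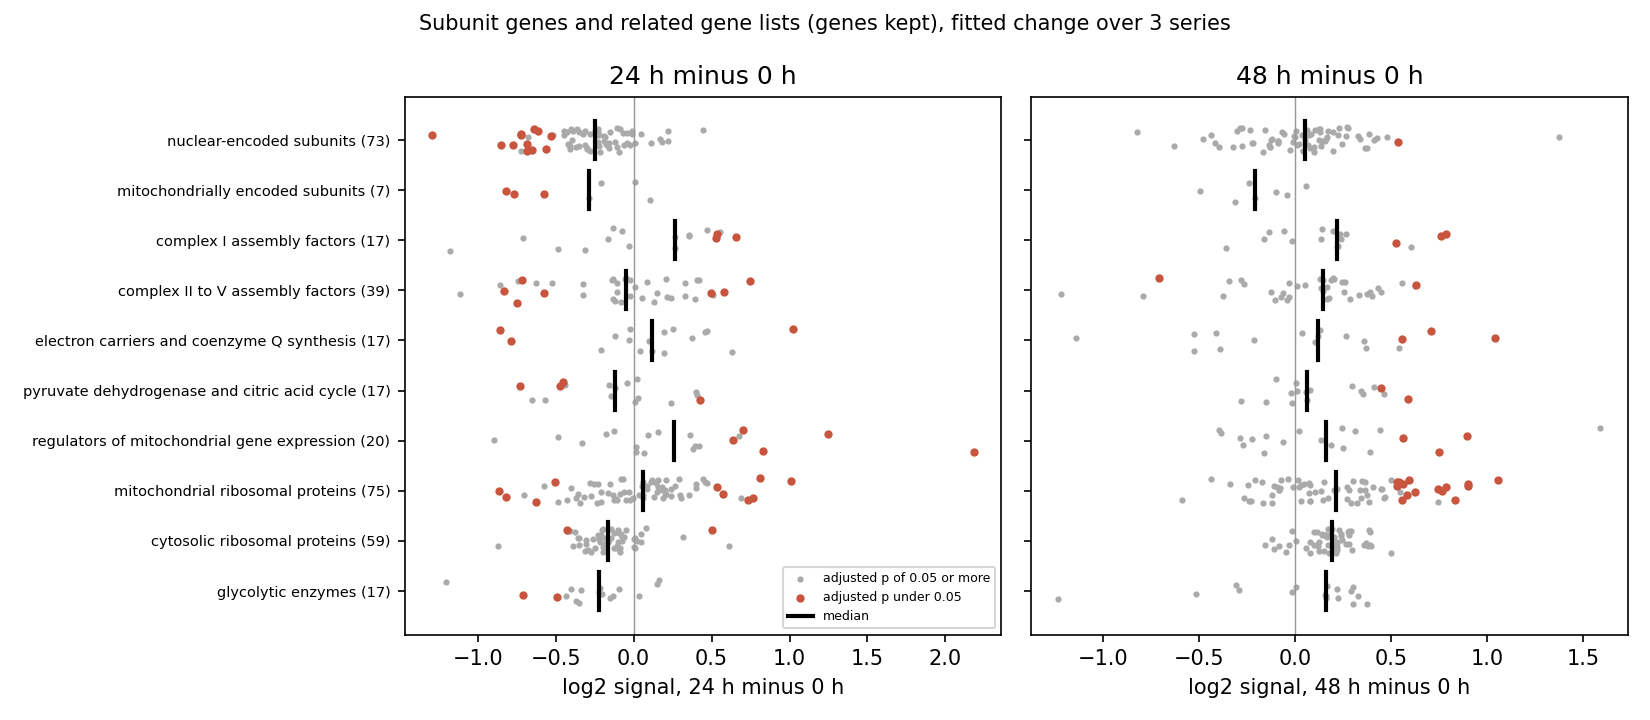
Fitted log2 change at 24 h and at 48 h against 0 h for the 73 subunit genes and the kept genes of 9 related lists (numbers in brackets), 1 point per gene, with genes at an adjusted p under 0.05 in red and a bar at each median. At 24 h the subunit median lies at -0.25 and those of complex I assembly factors and of regulators of mitochondrial gene expression at 0.26. Below 0 lie 65 of 73 subunit estimates, 8 of 17 for the assembly factors and 5 of 20 for the regulators.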

How the data were processed

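RNA was extracted with Trizol and hybridised as biotin-labelled cRNA, per the labels' protocols. The deposited values are linear intensities for 54675 probe sets; the submitters' processing notes name GCOS, with no version, and the trimmed mean (2% at each end) is 150 on every array, so the authors scaled them. They were raised to a floor of 8.27, the 25th percentile, and taken to log2 with no further normalization. Genes were named from the platform annotation; 41091 probe sets had 1 gene and 1801 several, and the latter and 11777 unlisted ones were left out. Genes with a mean log2 signal up to 4.20, the 40th percentile, were dropped. Testing was done in limma 3.58.1 (R 4.3.3) with a variance trend and Benjamini-Hochberg adjustment over all 13792 genes: time with series as a block (4 residual degrees of freedom, 16.5 with the moderation), or 1 term per construct (2 and 16.2). The script was tested on simulated data. Named genes are the members called, the 2 largest changes per complex at each time, the tissue isoforms and ATP5IF1, and up to 4 called genes per list; TFAM, GABPA, NRF1 and others singled out for context were named after their values were seen. The members and lists were chosen with earlier results of these data known. With 1 array per group, the number of arrays limits the precision. Signals of different genes are not compared.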

Additional observations from a re-analysis of the deposited data

Results flagged for a closer look

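The difference between the truncated NRSF and untreated series in their change from 0 h was -2.26 for NDUFA1 (limma, adjusted p = 0.034) and -2.06 for UQCRB (adjusted p = 0.025). The difference between the full-length and truncated NRSF series was 1.90 for UQCRB (adjusted p = 0.047). Each drew attention because the test of the difference between 2 series passed the threshold.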

How the results depend on the processing

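The 24 h count of 12 subunit genes was 5 with no filter on low signal, 5 when probe sets were averaged per gene, 4 with unmarked probe sets only, 7 without the full-length series and 0 without a variance trend, where 13 genes were lower at an unadjusted p under 0.05 and 218 genes of 13792 were called lower. Leaving out 1 array gave 6 to 15, the lowest without the truncated 24 h array. The 48 h against 0 h count of 1 was 2 with a filter at the 60th percentile, 3 with unmarked probe sets only, and 0 with no filter, the mean of probe sets, no variance trend, or without the full-length or the untreated series (0 to 4 leaving out 1 array). The 48 h against 24 h count of 4 was 2 after quantile normalization, 1 after cyclic loess, 0 with no filter, the mean of probe sets, unmarked probe sets or no variance trend, 1 without the full-length or the untreated series, and 2 without the truncated series (0 to 9 leaving out 1 array). The truncated against untreated count of 2 was 1 after quantile normalization, with a floor at the 40th percentile, with unmarked probe sets only and with all probe sets fitted singly, an alternative chosen after seeing the data, and 0 with no filter, a filter at the 60th percentile, the mean of probe sets or no variance trend (0 to 8 leaving out 1 array). The full-length against truncated count of 1 was 0 under those settings other than quantile normalization (0 to 4 leaving out 1 array). A lone array left at a time or exposure was assumed to vary like the others. Among called changes, and NDUFA1 at 24 h, signs turned for NDUFB7 at 24 h (0.27) and NDUFB6 at 48 h against 24 h (-0.06) with the mean of probe sets, for ATP5IF1 at 24 h (0.16) and TMEM126B at 48 h (-0.19) with unmarked probe sets, and for NDUFA1 without the truncated series (0.66, limma adjusted p = 0.024). The median change at 24 h stayed below 0 under every alternative run, from -0.38 to -0.10. The exposure contrasts could not be fitted without a 0 h array. The labels give no replicate numbers to pair by; the time model pairs each array with those of its own series, and without that series block 10 members were called at 24 h.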
